A study of Drosophila melanogaster with 20 samples.

Results

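In fly brain, 10 genes of peptidoglycan sensing and of the immune deficiency (IMD) pathway were followed. They were the sensors PGRP-SA, PGRP-SD, PGRP-LC and PGRP-LE, the amidases PGRP-LB, PGRP-SB1 and PGRP-SC2, the inhibitors PGRP-LF and pirk, and the transcription factor Relish (Rel). They were taken by name, with earlier results of these data known, and all 10 were found among the 11780 genes measured in both sexes. The 20 RNA-seq libraries came from brains of Drosophila melanogaster of the wild-type strain W1118, aged 4 to 7 days, 5 libraries for each of 4 groups. Males were fed either LPHC food, poor in protein and rich in carbohydrate (protein to carbohydrate 0:1 at 180 g/L), or HPLC food, rich in protein and poor in carbohydrate (1:1 at 180 g/L). Females were fed LPHC food at 1:2 and 360 g/L or HPLC food at 1:1 and 90 g/L, so the recipes of the sexes differed and sex cannot be told apart from recipe. The diet names describe the ratio. By ratio and concentration together, female LPHC food held more protein per litre, and more carbohydrate, than female HPLC food. Male LPHC food held no protein, so a female difference on LPHC is not one of low protein intake alone or of carbohydrate alone. The study is about diet and sleep, and its design text names the male LPHC diet as the one with the longest sleep and the male HPLC diet as the one with the shortest.

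Peptidoglycan is a polymer of the bacterial cell wall that insects recognise as a sign of bacteria. In Drosophila the type with diaminopimelic acid activates the IMD pathway through the membrane receptor PGRP-LC and the intracellular sensor PGRP-LE, which leads through the adaptor Imd to cleavage of the NF-kappaB factor Relish and to transcription of antimicrobial peptide genes. The lysine type activates the Toll pathway through the secreted protein PGRP-SA. The IMD pathway is held in check by amidases that cut peptidoglycan, among them PGRP-LB and PGRP-SC2. It is also restrained by PGRP-LF, which pairs with PGRP-LC without binding peptidoglycan, and by pirk, which acts inside the cell on the receptors and Imd. PGRP-SB1 is an amidase too. Fat body, gut and haemocytes are the tissues best known for these genes, and the pathway has also been studied in fly neurons and glia.

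In males on LPHC, 9 of the 10 genes fell and PGRP-LE rose. The falls ran from 7.98-fold for PGRP-SD to 1.36-fold for PGRP-LF, with Rel 2.08-fold and pirk 2.31-fold lower than on HPLC. In females on LPHC, pirk and Rel rose, PGRP-SA, PGRP-SB1 and PGRP-SD fell, and the other 5 did not pass the test. All values are the authors' normalised read counts, every difference is log2(value + 1) on LPHC minus that on HPLC, which understates changes of low genes, and each adjusted p is from limma with Benjamini-Hochberg adjustment over all genes tested in that sex, n = 5 libraries per group. The male calls, 10 of 10, stand beside a background of 57.2% of all 10115 genes tested, 29.6% lower and 27.6% higher. The female calls, 5 of 10, stand beside a background of 31.5% of 9932 genes, 14.8% lower and 16.7% higher. The balance of directions over all genes depended on scaling: 48.3% of male calls and 53.0% of female calls were higher as deposited, and 75.1% and 81.4% with library totals made equal, which moved the median gene by 0.25 in males and 0.16 in females (67.2% and 66.8% with equal upper quartiles). With equal totals 8 of the 10 genes fell and 1 rose in males, and 2 fell and 3 rose in females. The background there was 73.9% of male genes called (1861 of 10115 lower and 5610 higher). It was 39.5% of female genes (729 of 9932 lower and 3190 higher). The 10 genes were chosen with earlier results of these data known, so their counts beside a background are a description. The groups of libraries did not overlap for 8 of the 10 genes in males, LPHC being below in all 8 (background 42.7% of genes without overlap, 23.7% with LPHC below and 19.0% with LPHC above), and for 2 in females, 1 below and 1 above (background 22.1%, 10.1% below and 12.0% above). The median difference of the 10 genes was −1.31 in males, against 0.02 over all genes tested, and −0.27 in females, against −0.02. All 10 passed the filter on low values in both sexes, but PGRP-SC2 did so in males through the HPLC libraries alone (5 of 5 at a value of 10 or more, against 2 of 5 LPHC libraries), so the filter favoured a fall. Without it, at a minimum value of 50, 9 of 9 genes passed in males, 8 lower and 1 higher. The background at that filter was 61.0% of 8902 genes, with 2799 lower and 2627 higher. Fat body markers moved with diet too, at 0.224% of reads in male LPHC and 0.837% in male HPLC and at 1.43% in female LPHC and 1.72% in female HPLC, and their part in the differences of the 10 genes was not tested.

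**Figure D1:**
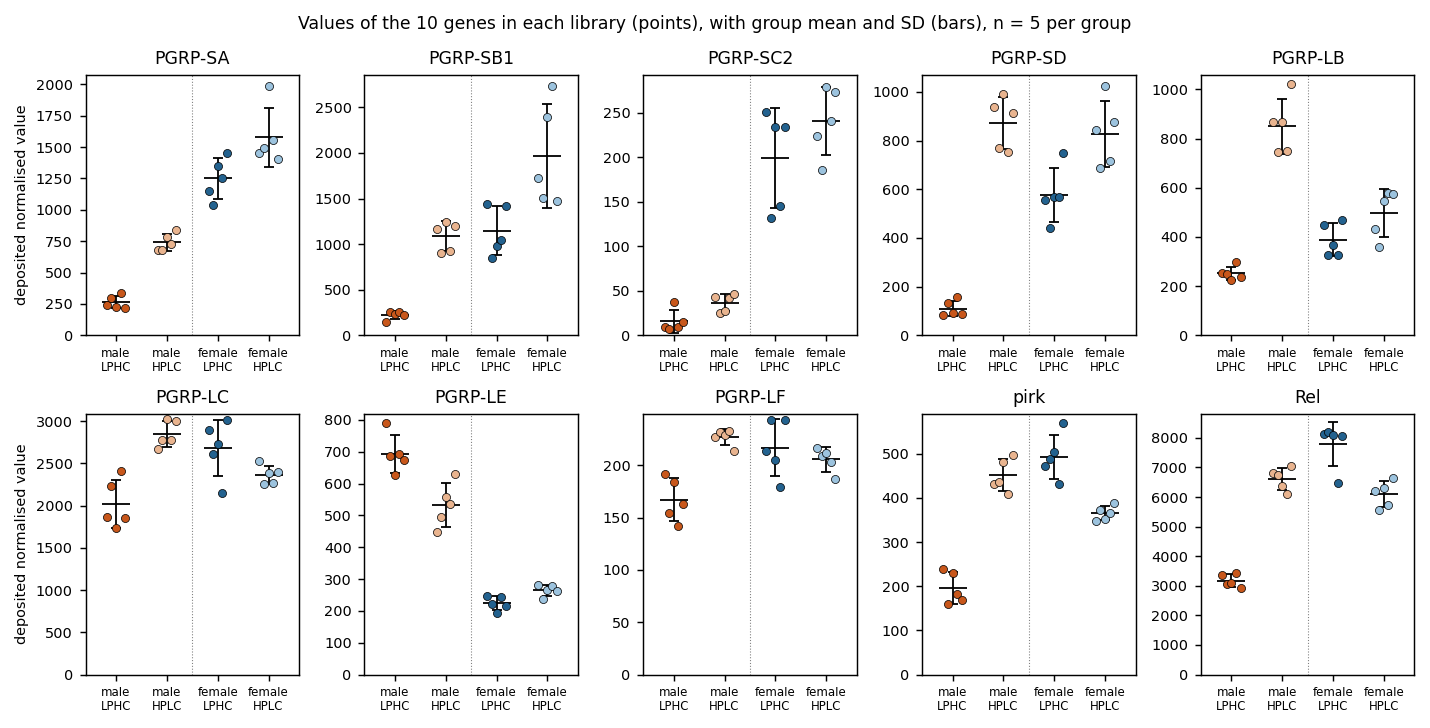
Deposited normalised value (vertical axis, from 0, 1 panel per gene) in each of 20 libraries as points, with the mean and SD of each group of 5 as bars; the sexes were scaled in separate tables, so heights are compared within a sex. In males the LPHC points lie below all HPLC points for 8 genes, and in females the LPHC points of pirk lie above all HPLC points.

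PGRP-SD (FBgn0035806) is a secreted recognition protein that has been tied to both the Toll and the IMD pathway. Its values in the 5 libraries of male LPHC were 81.7, 131, 92.6, 155 and 86.3, against 938, 771, 993, 752 and 912 in male HPLC. The highest LPHC library lay far below the lowest HPLC library, and the difference was −3.02 (SE 0.16, adjusted p = 1.18e-09), the 114th strongest fall of 10115 genes. In females the values were 555, 439, 569, 568 and 749 on LPHC, against 841, 687, 1024, 714 and 877 on HPLC. These groups overlapped in 1 LPHC library that lay above 2 HPLC libraries, and the mean was 1.44-fold lower on LPHC (−0.53, SE 0.13, adjusted p = 0.00641). In the Ensembl fly annotation 35 of the 721 exon bases of PGRP-SD also belong to CG7492 on the opposite strand. Whether the counting used strand is not stated. CG7492 averaged 2457 in male LPHC and 2456 in male HPLC, and 1406 in female LPHC and 1485 in female HPLC. The part of CG7492 reads in the PGRP-SD values was not tested.

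PGRP-SA (FBgn0030310), the Toll-side sensor, had 244, 294, 227, 336 and 218 in male LPHC, against 682, 682, 779.9, 725 and 838 in male HPLC. The groups were far apart, with a 2.81-fold lower mean on LPHC (−1.50, SE 0.11, adjusted p = 4.90e-08). In female LPHC its values were 1151, 1042, 1346, 1257 and 1456, against 1456, 1489, 1990.1, 1557 and 1408 in female HPLC. Only the highest LPHC library reached into the HPLC range, and the female difference was −0.34 (SE 0.11, adjusted p = 0.0259). This female call was lost without LPHC replicate 1 (adjusted p = 0.0624) or LPHC replicate 2 (0.0687), and after scaling to equal library totals (−0.17, adjusted p = 0.171) or upper quartiles (−0.27, 0.0699).

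The receptors that start IMD signalling had smaller differences in males than the secreted sensors, and in opposite directions. PGRP-LC (FBgn0035976), the membrane receptor, had 1869, 2231, 1734, 2408 and 1849 in male LPHC, against 2667, 2772, 3021, 2774 and 3000 in male HPLC. The groups did not overlap and the mean was 1.41-fold lower on LPHC (−0.51, SE 0.08, adjusted p = 0.000142; −0.26 after scaling to equal totals, adjusted p = 0.00893). In females PGRP-LC had 2895, 2605, 2726, 2153 and 3018 on LPHC, against 2522, 2252, 2382, 2269 and 2396 on HPLC. Replicate 4 of LPHC lay below every HPLC library and the other 4 above all of them, and the difference of 0.17 (95% interval −0.01 to 0.36) did not pass (adjusted p = 0.147). It did pass without that library (0.25, adjusted p = 0.0133), and after scaling to equal totals (0.33, adjusted p = 0.00784) or upper quartiles (0.24, 0.0350). With each library left out in turn, its adjusted p ran from 0.0133 to 0.324.

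PGRP-LE (FBgn0030695), which senses peptidoglycan inside the cell, was the 1 gene of the 10 that rose in males. It had 789, 686, 627, 692 and 673 in male LPHC, against 448, 495, 557, 537 and 631 in male HPLC. The ranges touched only where the lowest LPHC library, 627, met the highest HPLC library, 631, and the mean was 1.30-fold higher on LPHC (0.38, SE 0.09, adjusted p = 0.00214; 0.63 after scaling to equal totals). In females PGRP-LE had 248, 222, 194, 244 and 217 on LPHC, against 281, 236, 264, 279 and 263 on HPLC. These ranges overlapped, and the difference of −0.24 (95% interval −0.43 to −0.04) did not pass (adjusted p = 0.0608). It passed without HPLC replicate 2 (adjusted p = 0.0464) or LPHC replicate 4 (0.0456). With each library left out in turn, its adjusted p ran from 0.0456 to 0.152.

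The amidases that break down peptidoglycan were all lower in males on LPHC. PGRP-SB1 (FBgn0043578), a secreted amidase, had 144, 257, 229, 253 and 217 in male LPHC, against 1162, 905, 1246, 919 and 1203 in male HPLC, a 4.94-fold lower mean (−2.31, SE 0.15, adjusted p = 7.40e-09). Every male LPHC library lay far under every HPLC library. Female LPHC had 1443, 852, 977, 1049.6 and 1416, against 1727, 1502, 2398, 2731 and 1470.1 in female HPLC. PGRP-SB1 was the only one of the 10 whose female LPHC libraries all lay below the HPLC libraries, with a 1.71-fold lower mean (−0.76, SE 0.18, adjusted p = 0.00487), although both female groups varied widely around their means (coefficient of variation 23.3% on LPHC and 28.9% on HPLC).

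PGRP-LB (FBgn0037906), the main amidase for diaminopimelic acid peptidoglycan, had 252, 248, 224, 297 and 238 in male LPHC, against 865, 747, 869, 748 and 1021 in male HPLC. The 3.37-fold lower mean came with no overlap between the groups (−1.75, SE 0.10, adjusted p = 1.71e-09). In females the values were 450.1, 327, 368, 328 and 470 on LPHC, against 431, 359, 544, 579.5 and 574 on HPLC. The ranges overlapped and the difference of −0.35 (95% interval −0.65 to −0.04) did not pass (adjusted p = 0.0788), though it did without HPLC replicate 2 (0.0175) or LPHC replicate 5 (0.0474). With each library left out in turn, its adjusted p ran from 0.0175 to 0.176.

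PGRP-SC2 (FBgn0043575), an amidase known from the gut, had the lowest level per exon length of the 10 in males. It had 8.75, 6.97, 37.5, 9.79 and 14.5 in male LPHC, against 43.2, 24.7, 27.4, 41.7 and 46.5 in male HPLC, which rest on 5 to 34 reads per LPHC library and 25 to 56 per HPLC library. Replicate 3 of LPHC lay inside the HPLC range and the other 4 below it, with a difference of −1.41 (SE 0.38, adjusted p = 0.00553). The gene passed the filter through the 5 HPLC libraries, with 2 of 5 LPHC libraries at 10 or more. The filter thus favoured a fall, and this male call is a description only. Gut marker genes took 0.0179% of reads in male LPHC and 0.127% in male HPLC, a share made up almost wholly of the amylase genes Amy-p and Amy-d, and their part in this difference was not tested. In females it had 251, 132, 234, 146 and 234 on LPHC, against 223, 185, 279, 241 and 273 on HPLC. The female groups overlapped in part, with 2 LPHC libraries below every HPLC library and 2 HPLC libraries above every LPHC library, and the difference was −0.30 (95% interval −0.68 to 0.08, adjusted p = 0.215).

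Of the 2 inhibitors, pirk changed in opposite directions in the 2 sexes. pirk (FBgn0034647) had 238, 159, 229, 183 and 169 in male LPHC, against 432, 436, 482, 409 and 497 in male HPLC, a difference of −1.22 (SE 0.11, adjusted p = 5.09e-07) with no overlap. In females it had 472, 487, 503, 431 and 569.7 on LPHC, against 348, 373, 351, 365 and 387 on HPLC. It was the only one of the 10 whose female LPHC libraries all lay above the HPLC libraries, 1.35-fold higher in the mean (0.43, SE 0.08, adjusted p = 0.000994).

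PGRP-LF (FBgn0035977) had 191, 155, 184, 142 and 163 in male LPHC, against 227, 232, 229, 233 and 213 in male HPLC. The groups did not overlap. The difference of −0.45 (SE 0.09, adjusted p = 0.000773) was the smallest fall of the 9, and the call was lost after scaling to equal totals (−0.20, adjusted p = 0.0747). In females it had 214, 243, 205, 179 and 243 on LPHC, against 217, 209, 212, 203 and 187 on HPLC, with no difference past the test (0.07, 95% interval −0.14 to 0.28, adjusted p = 0.633). In the Ensembl fly annotation 602 of the 1355 exon bases of PGRP-LF also belong to exons of UGP on the opposite strand, and whether the counting used strand is not stated, so reads of the 2 genes may not have been kept apart. UGP averaged 3641 in male LPHC and 9496 in male HPLC (−1.39), and 9808 in female LPHC and 15967 in female HPLC (−0.69). The part of UGP reads in the PGRP-LF values was not tested.

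Rel (FBgn0014018), the NF-kappaB factor of the pathway, had 3356, 3054, 3093, 3432 and 2924 in male LPHC, against 6795, 6749, 6368, 6109.7 and 7038 in male HPLC. The libraries of each group lay close together (coefficient of variation 6.74% on LPHC and 5.59% on HPLC), and the mean was 2.08-fold lower on LPHC (−1.06, SE 0.06, adjusted p = 1.57e-09). In females Rel had 8146, 8188, 8111, 6479.7 and 8048 on LPHC, against 6200, 5562, 6309, 5737 and 6648 on HPLC. Replicate 4 of LPHC lay inside the HPLC range and the other 4 above it, with a 1.28-fold higher mean on LPHC (0.35, SE 0.08, adjusted p = 0.00405). The gene Nmdmc, a folate enzyme, lies within the span of Rel on the same strand with no shared exon base. It fell in both sexes (−3.25 in males and −0.78 in females), in the same direction as Rel in males and in the opposite direction in females. The part of Nmdmc reads in the Rel values was not tested.

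**Figure D2:**
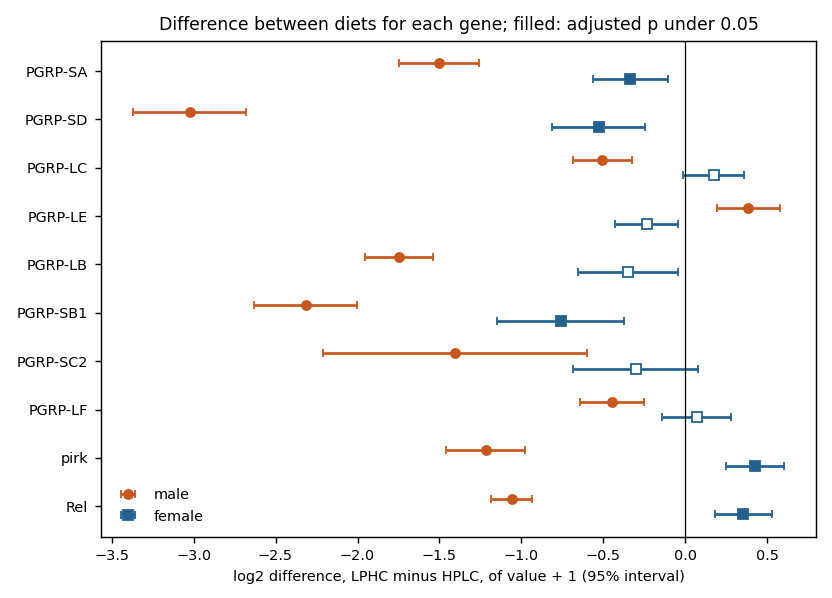
Difference between diets (horizontal axis, log2 of value + 1, LPHC minus HPLC, with its 95% interval) for each gene, males as circles and females as squares, filled where the adjusted p was under 0.05. In males 9 of 10 lie left of 0, from −3.02 for PGRP-SD to −0.45 for PGRP-LF, and in females pirk (0.43) and Rel (0.35) lie right of 0 while PGRP-SA, PGRP-SD and PGRP-SB1 lie left of it.

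A fit over all 20 libraries tested whether the diet difference in males departed from that in females, as male minus female; the separate scaling of the tables drops out of it. All 10 genes differed (background 52.3% of 9766 genes, 29.6% lower and 22.7% higher), 9 with the lower value in males and PGRP-LE with the higher. The widest gap was that of PGRP-SD (−2.49, SE 0.23, adjusted p = 3.91e-09). For pirk it was −1.64 (SE 0.14, adjusted p = 1.67e-09) and for Rel −1.41 (SE 0.10, adjusted p = 6.32e-11), and for these 2 genes the differences of the sexes had opposite signs and each passed in its own sex. PGRP-LE had the opposite pattern (0.62, SE 0.13, adjusted p = 0.000269), with a rise in males and a female difference of −0.24 that did not pass. The call of PGRP-SC2 (−1.10, SE 0.44, adjusted p = 0.0383) was lost under 17 of the 29 alternatives that tested it, among them edgeR (adjusted p = 0.0733) and DESeq2 (0.0801) on whole reads. Because the diets of the sexes differed in ratio and concentration, a difference between sexes and a difference between recipes cannot be told apart.

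Within each group the levels of the genes were set per kilobase of annotated exon, for a rough comparison of genes within a sex. The length counts the exons of all transcripts of a gene, and the annotation used for counting is not known, so the order is approximate. In male LPHC Rel was the highest (907 ± 61.1 per kb, SD, n = 5), followed by PGRP-LC (539 ± 76.6), PGRP-SB1 (353 ± 72.9), PGRP-LE (335 ± 28.6) and PGRP-SA (259 ± 49.1). PGRP-SC2 was the lowest (20.8 ± 16.9), and the neighbours in the order from PGRP-SB1 down to pirk (106 ± 19.4) overlapped in range. In male HPLC Rel (1890 ± 106) and PGRP-SB1 (1745 ± 261) overlapped at the top and PGRP-SD (1211 ± 147) came next, so that PGRP-SD and PGRP-SB1 stood above PGRP-LC (761 ± 41.6) on HPLC and below PGRP-LC (539 ± 76.6) on LPHC.

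In female LPHC Rel (2228 ± 211 per kb) and PGRP-SB1 (1842 ± 429) overlapped at the top, and PGRP-SA (1228 ± 159), PGRP-SD (799 ± 154) and PGRP-LC (716 ± 89.2) followed, each overlapping the next. In female HPLC PGRP-SB1 stood alone at the top (3155 ± 912), above Rel (1741 ± 126), which overlapped PGRP-SA (1552 ± 231). PGRP-LE was the lowest of the 10 in both female groups, at 109 ± 10.7 per kb on LPHC and 128 ± 8.66 per kb on HPLC, whereas PGRP-SC2 was the lowest in both male groups.

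Libraries of a group did not move the genes all together. In female LPHC, replicate 2 was the lowest library for the 5 genes PGRP-SA, PGRP-SB1, PGRP-SC2, PGRP-SD and PGRP-LB, and replicate 4 was the lowest for PGRP-LC, PGRP-LF, pirk and Rel. PGRP-SA, PGRP-SD and the amidases thus had their lowest value in one library and PGRP-LC, the inhibitors and Rel in another. Female HPLC replicate 2 was the lowest of its group for 6 genes, and male HPLC replicate 5 was the highest for 6. Coefficients of variation within groups ran from 3.48% (PGRP-LF, male HPLC) to 81.2% (PGRP-SC2, male LPHC).

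Other genes of the pathway were read from lists of names, drawn up with earlier results of these data known. Their counts stand beside the same background of all genes, 57.2% called in males (29.6% lower and 27.6% higher) and 31.5% in females (14.8% lower and 16.7% higher). With equal totals 5610 of 10115 genes were higher and 1861 lower in males (median 0.27). In females 3190 of 9932 were higher and 729 lower (median 0.14). With equal upper quartiles 4540 were higher and 2220 lower in males, and 2081 higher and 1034 lower in females. Of 12 genes of the IMD core, 8 fell and 1 rose in males on LPHC (median −0.23), and 1 fell and 1 rose in females (median 0.08), the female share being below the background of 31.5%. These counts depended on scaling. With equal totals 2 fell and 4 rose in males (median 0.02) and 1 fell and 7 rose in females (median 0.25), and with equal upper quartiles 4 fell and 4 rose in males (median −0.07) and 1 fell and 2 rose in females (median 0.15). In males imd, the adaptor that gives the pathway its name, averaged 455 on LPHC and 756 on HPLC (−0.74, adjusted p = 1.98e-06), and IKKbeta, the kinase subunit upstream of Rel, averaged 294 on LPHC and 551 on HPLC (−0.90, adjusted p = 4.74e-06). Uev1A (−0.34) and akirin (−0.28), a ubiquitin-conjugating cofactor and a nuclear cofactor of Rel, also fell in males as deposited but not with equal totals (−0.09 and −0.03), whereas imd (−0.49) and IKKbeta (−0.65) did fall there. In females key, the regulatory subunit of the same kinase, rose (0.44, adjusted p = 0.000492), Dredd, the caspase that cleaves Relish, fell (−0.45, adjusted p = 0.00255), and imd (0.25, adjusted p = 0.111) and Uev1A (0.16, 0.143) did not pass, though both did with equal totals (0.41 and 0.32).

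Of 8 tested negative regulators other than pirk and the recognition proteins, 3 rose and 2 fell in males (median 0.06) and 3 rose and 1 fell in females (median 0.10). The male count is near the background of 57.2%. With equal totals 6 rose and 0 fell in males (median 0.31) and 3 rose and 0 fell in females (median 0.26). Rises were common among all genes at that scaling, 5610 of 10115 in males (median 0.27) and 3190 of 9932 in females (median 0.14). The gene dnr1, an inhibitor of Dredd, rose in both sexes (0.30 in males, adjusted p = 0.000995; 0.66 in females, adjusted p = 2.11e-05), and casp, which encodes a protein that restrains Relish cleavage, fell in both as deposited (−0.14 in males and −0.22 in females) and in neither with equal totals (0.11 in males and −0.06 in females). In males the deubiquitinase gene CYLD (0.24) and nub (0.39) rose, and in females POSH (0.58) and Charon (0.23) rose. The ninth gene of the list, cad, was too low to be tested.

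Of 5 other recognition genes tested, 4 fell in males and 3 fell and 1 rose in females. GNBP3, a sensor of fungal glucans, averaged 644 on LPHC and 2588 on HPLC in males (−2.01, adjusted p = 1.70e-10) and 2248 on LPHC and 3538 on HPLC in females (−0.64, adjusted p = 0.00309). GNBP-like3 fell by 1.26 in males and fell by 1.27 in females. GNBP2 fell by 0.97 in males and fell by 0.30 in females, the female call being lost with equal totals (−0.14) or upper quartiles (−0.23), and GNBP1, the partner of PGRP-SA, fell in males (−0.61). PGRP-LA, which neighbours PGRP-LC on the same strand, did not pass in males (0.07, adjusted p = 0.236; 0.32 with equal totals, adjusted p = 6.81e-05) and rose in females (0.26, adjusted p = 0.0159). PGRP-SB2, PGRP-SC1b and PGRP-LD were below the filter, with group means under 10 in both sexes.

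Of 15 Toll pathway genes, 13 fell and 0 rose in males (median −0.37; background 29.6% lower and 27.6% higher), and 6 fell and 5 rose in females (median −0.14; background 14.8% lower and 16.7% higher). With equal totals 7 fell and 2 rose in males (median −0.12) and 6 fell and 6 rose in females (median 0.03). The background at equal totals was 5610 of 10115 genes higher and 1861 lower in males, and 3190 of 9932 higher and 729 lower in females. Those that fell in males included modSP (−1.47), nec (−1.18), SPE (−1.12) and Hayan (−1.04), 3 proteases and a protease inhibitor (nec) of the cascade upstream of Toll. In females spz, the ligand of Toll, rose (0.89, adjusted p = 1.21e-06) together with the inhibitor gene cact (0.47), while the NF-kappaB gene Dif (−0.63) and modSP (−0.60) fell. Among the effectors, 9 of 10 tested antimicrobial peptide genes fell and 0 rose in males (median −2.84), and 2 fell and 3 rose of 13 tested in females (median −0.29), against the same backgrounds. With equal totals the male counts were the same (median −2.60) and 1 fell and 3 rose in females (median −0.13). In males AttA averaged 188 on LPHC and 2746 on HPLC (−3.92, adjusted p = 2.28e-07), and AttB (−2.78), AttC (−3.30) and AttD (−3.61) also fell. The filter favoured falls here as for PGRP-SC2: AttC, AttD, DptA, DptB and Def, 5 of the 10 genes tested in males, reached 10 in all 5 HPLC libraries but not in all 5 LPHC libraries (AttD in 0, AttC and DptA in 2, DptB and Def in 4), so the male count and median are a description only. In females CecB (56.9 on LPHC and 6.74 on HPLC on average; 3.09, adjusted p = 1.75e-05), Drs (2.22, adjusted p = 8.36e-06) and AttC (0.80, adjusted p = 0.00429) rose and Def fell (−1.41, adjusted p = 0.000963). CecB, CecA1 and CecC, 3 of the 13 genes tested in females, reached 10 in all 5 LPHC libraries but in 1, 3 and 4 HPLC libraries. The filter thus favoured rises here, and the female count and median are a description only. AttA and AttB are near-identical copies and the cecropin genes are close relatives, so their separate values are uncertain.

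**Figure D3:**
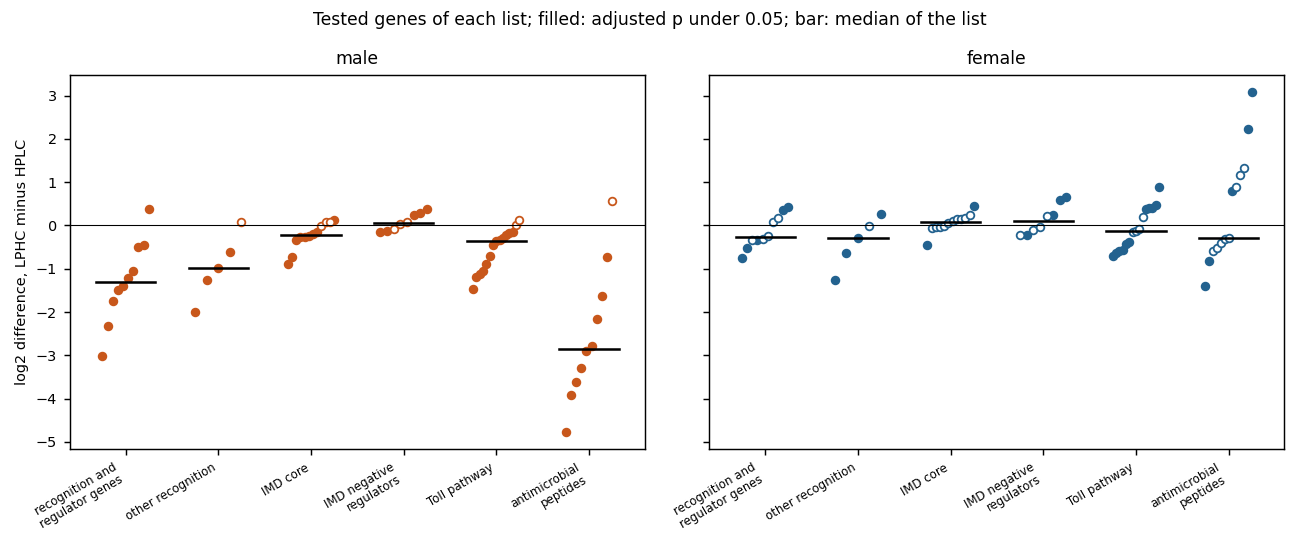
Difference between diets (vertical axis, log2 of value + 1, LPHC minus HPLC) of each tested gene of the 6 lists, males on the left panel and females on the right, filled where the adjusted p was under 0.05, with the median of each list as a bar. Male medians are −1.31 for the recognition and regulator genes, −0.23 for the IMD core and −2.84 for antimicrobial peptides, and female medians lie between −0.30 and 0.10. Values are as deposited, and the male IMD core median was 0.02 with equal totals and −0.07 with equal upper quartiles. The filter favoured falls for 5 of the 10 antimicrobial peptide genes tested in males and rises for 3 of the 13 tested in females.

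For each gene the genes with the most similar profile over the 10 libraries of a sex were taken by Pearson correlation of log2(value + 1), as a description to which the difference between diets itself contributes. In males PGRP-SD was most like CG34331, Hao and Daao2 (r = 0.999, 0.998 and 0.998), and Rel was most like CG3597, Echs1 and Mtap (r = 0.996, 0.996 and 0.995), all 6 of which were lower on LPHC. PGRP-LE in males was most like CG4558, twf and CG14905 (r = 0.964, 0.962 and 0.957). PGRP-SC2 in males was most like dysf, CG14441 and the antimicrobial peptide gene AttC (r = 0.960, 0.957 and 0.953). Both PGRP-SC2 and AttC passed the male filter through the HPLC libraries, and both were highest of their LPHC group in replicate 3. In females Rel was most like pAbp, CG8010 and CG34261 (r = 0.975, 0.971 and 0.966), and pirk most like Mco1, spirit and CG4849 (r = 0.971, 0.960 and 0.960).

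Depth ranged from 13901684 to 35077559 recovered reads per library. The labels do not say whether libraries of a group are separate sets of flies, so the p-values reflect library-to-library spread alone, and that spread may be technical. All 10 neuron markers and 10 glia markers were detected, and the libraries also carried markers of other tissues. In males the 13 fat body markers together took 0.171% to 0.293% of reads in LPHC libraries, against 0.803% to 0.900% in HPLC libraries (exact permutation test, two-sided, p = 0.00794, adjusted p = 0.0127 over 16 comparisons), and the 10 that were tested fell (median −2.26). Of these Lsp2 and Lsp1alpha reached 10 in 0 of 5 LPHC libraries and entered the test through HPLC alone, and the 3 too low to test, Fbp1, Fbp2 and Lsp1gamma, were 2.49, 1.02 and 1.69 times as high on LPHC as on HPLC. The 12 haemocyte markers took 0.0464% to 0.0604% on LPHC, against 0.0632% to 0.0727% on HPLC, with 8 of 12 lower and 2 higher, and the 10 glia markers took 0.121% to 0.129% on LPHC, against 0.157% to 0.178% on HPLC, with 10 of 10 lower (both exact p = 0.00794, adjusted p = 0.0127). Neuron markers took more on LPHC, 0.512% to 0.644%, against 0.426% to 0.450% on HPLC (exact p = 0.00794, adjusted p = 0.0127), with 4 of 10 higher and 1 lower. These gene counts are as deposited (background 29.6% lower and 27.6% higher) and depended on scaling. With equal totals 6 of 10 glia markers were lower and 0 higher, and 5 of 12 haemocyte markers lower and 2 higher. There 9 of 10 neuron markers were higher and 0 lower, beside 5610 of 10115 genes higher and 1861 lower. Gut markers, 6 of 12 of which were in the tables, took 0.0133% to 0.0234% on LPHC, against 0.116% to 0.145% on HPLC. Only the amylase genes Amy-p (−3.89) and Amy-d (−2.30) were high enough to test, and both fell, while the other 4, with group means under 10, were 1.90 (Jon65Aiii), 2.32 (Jon99Ci), 1.42 (Jon99Cii) and 1.17 (LManVI) times as high on LPHC as on HPLC. Muscle markers took 0.549% to 0.699% on LPHC, against 0.300% to 0.374% on HPLC, with 9 of 10 higher and 0 lower, and photoreceptor markers 7.96% to 9.66% on LPHC, against 7.60% to 8.20% on HPLC (exact p = 0.00794 for gut and muscle and 0.0238 for photoreceptors). Of the 12 photoreceptor markers 2 were higher, 2 lower and 8 did not pass (median −0.04).

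In females the fat body markers took 1.25% to 1.56% on LPHC, against 1.41% to 1.95% on HPLC (exact permutation p = 0.0317, adjusted p = 0.0391), with 4 of 10 tested lower and 3 higher, and this call was lost without LPHC replicate 1 or 4 or HPLC replicate 1, 2, 3 or 5 (exact p = 0.0635 for each). The haemocyte markers took 0.0850% to 0.0983% on LPHC, against 0.0716% to 0.0863% on HPLC (exact p = 0.0238, adjusted p = 0.0317), with 1 of 12 lower and 3 higher. The 3 yolk protein genes took 6.75% to 8.62% on LPHC, against 12.3% to 15.1% on HPLC, and in males 0.00787% to 0.00973% on LPHC, against 0.00666% to 0.118% on HPLC, the highest being HPLC replicate 4. The glia markers took 0.136% to 0.145% on LPHC, against 0.0983% to 0.116% on HPLC (exact p = 0.00794, adjusted p = 0.0127), with 6 of 10 higher and 2 lower. Gut markers took 0.0864% to 0.114% on LPHC, against 0.153% to 0.193% on HPLC, and photoreceptor markers 4.83% to 6.19% on LPHC, against 3.01% to 4.72% on HPLC, with 6 of 12 higher and 0 lower (both exact p = 0.00794). The female gut share too rested on Amy-p (−1.04) and Amy-d (−0.76), which fell, and of the other 4 genes Jon99Ci (1.12), Jon99Cii (1.09) and LManVI (1.07) were slightly higher and Jon65Aiii (0.55) lower as a ratio of LPHC to HPLC, at means under 10. The shares of neuron (exact p = 0.524) and muscle markers (exact p = 0.381) did not pass, but gene by gene 6 of 10 muscle markers were lower and 0 higher (median −0.38) and 1 of 10 neuron markers was lower and 0 higher. Female gene counts too are as deposited (background 14.8% lower and 16.7% higher). With equal totals 7 of 10 glia markers were higher and 2 lower, and 4 of 12 haemocyte markers higher and 0 lower. Among neuron markers 0 were higher and 0 lower there, beside 3190 of 9932 genes higher and 729 lower. No marker of these lists was at 0 in all 5 libraries of a group. The part of these tissues in the differences of the recognition and regulator genes was not tested, and in whole tissue fewer cells of a type and less RNA per cell cannot be told apart.

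**Figure D4:**
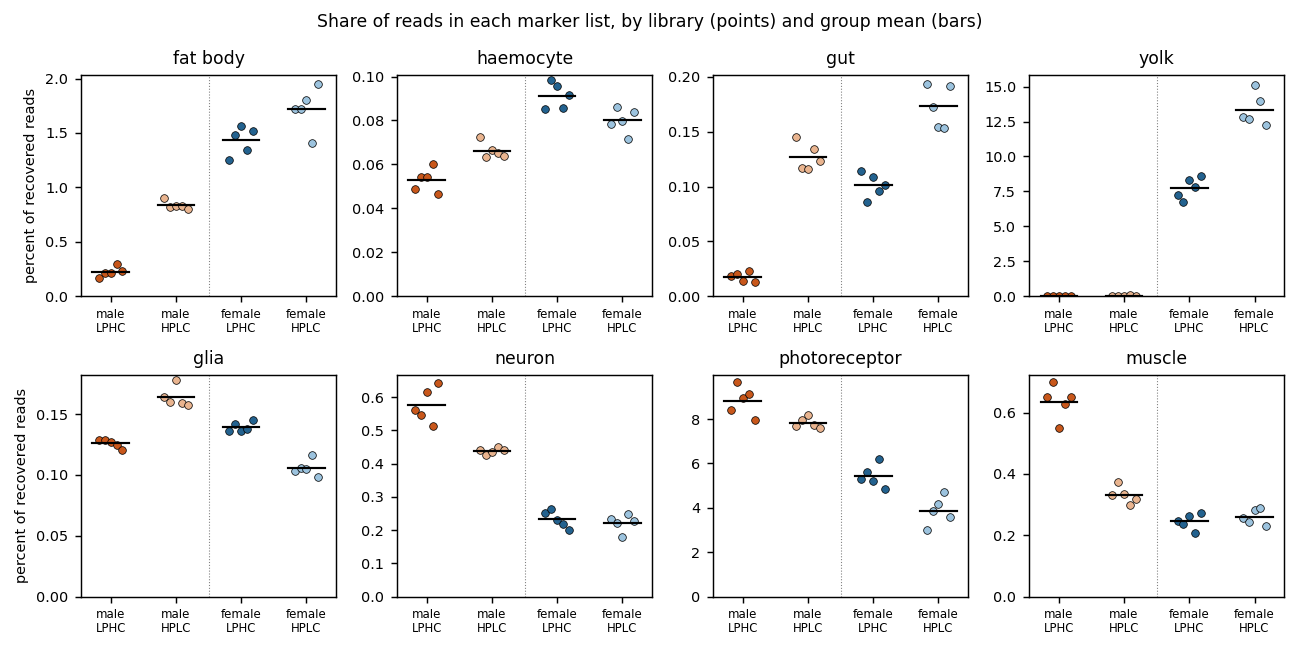
Share of recovered reads (vertical axis, percent, from 0) taken by each of 8 marker lists in each library, points coloured by group, with group means as bars. In males the fat body share lies at 0.171% to 0.293% on LPHC, against 0.803% to 0.900% on HPLC, and in females at 1.25% to 1.56% on LPHC, against 1.41% to 1.95% on HPLC.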

How the data were processed

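The authors deposited, for each sex, a table of normalised signal per gene and library, in which each gene's read count had been divided by a size factor of the library. DESeq2 scaling and removal of long non-coding RNAs are named only in the labels of the deposited tables. HISAT2 is the aligner in the submitters' processing notes. How reads were counted, on which build and annotation and whether by strand is not given in the sources used here; coordinates are therefore left out. Dividing by what 1 read is worth in each library gave whole reads for 100% of values (tolerance 0.01). Of 12441 gene names, 12425 matched the reference gene tables, and the number of unused sample columns was 0.

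limma (3.58.1, R 4.3.3) with an intensity trend was run on log2(value + 1), two-sided, on genes that reached a value of 10 in 5 or more libraries, within each table, with Benjamini-Hochberg adjustment over all genes tested and a threshold of 0.05; it was tested on simulated data. The difference between sexes was fitted over both tables. Marker shares were compared with exact permutation tests (SciPy 1.17.1). Exon lengths and neighbouring genes came from the Ensembl fly annotation. Alternatives changed the pseudocount (0.5 or 8), the filter (none or 50), the scaling (equal totals or upper quartiles) or the moderation (robust), blocked on replicate number or left out each library. On the recovered reads edgeR (4.0.16) called 5909 male and 3113 female genes and DESeq2 (1.42.0) called 5849 male and 3305 female genes. No pair of libraries of a group agreed within sampling noise (smallest chi-square per degree of freedom 7.55). The 10 genes and all gene lists were chosen with earlier results of these data known. All 10 genes were named in the text. The others were up to 4 tested genes of each pathway list with the smallest p in each sex, the 3 genes most similar to each of the 10 (of which a part is given), and annotated neighbours. PGRP-LA in males, untested list genes, single markers, DptA, DptB and Def in males and CecA1 and CecC in females were named after their values were seen.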

Additional observations from a re-analysis of the deposited data

Results flagged for a closer look

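In 40 checks of a group of 5 libraries for a library that stands apart from the rest of its group, of which chance alone is expected to flag about 1 in 20, 3 libraries did so. PGRP-SC2 had 37.5 in male LPHC replicate 3, against 6.97 to 14.5 in the other 4 libraries. PGRP-SA had 1990.1 in female HPLC replicate 3, against 1408 to 1557 in the others. Rel had 6479.7 in female LPHC replicate 4, against 8048 to 8188 in the others.

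The difference between diets differed between males and females for all 10 genes in the fit over both sexes (male minus female). The values were −2.49 for PGRP-SD, −1.64 for pirk, −1.55 for PGRP-SB1, −1.41 for Rel, −1.40 for PGRP-LB, −1.17 for PGRP-SA, −1.10 for PGRP-SC2, −0.68 for PGRP-LC, −0.52 for PGRP-LF and 0.62 for PGRP-LE. The diets of the sexes were different recipes, and the call of PGRP-SC2 did not hold under most alternatives.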

How the results depend on the processing

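The number of the 10 genes past the threshold stayed within 1.5 times under every alternative. It was 10 in males (9 at a filter of 50, where PGRP-SC2 was not tested, and 9 at the same total), 4 to 7 in females when each library was left out and 5 under each other alternative, and 9 or 10 between sexes. Over the alternatives the share of all genes called ran from 48.4% to 73.9% in males and from 26.3% to 39.5% in females. Between sexes it ran from 46.1% to 54.8%. No direction of a difference of the 10 genes reversed. Scaling libraries to the same total moved the median gene by 0.25 in males and 0.16 in females, and the share of all calls that were higher stood at 75.1% in place of 48.3% in males and 81.4% in place of 53.0% in females. The medians of IMD core genes in males (0.0249) and of Toll genes in females (0.0272) turned round there, in alternatives added after seeing the data. At that total 1 gene of the 10 was higher and 8 lower in males, and 3 higher and 2 lower in females. Of all genes tested 73.9% in males and 39.5% in females were called there. The replicate number used as a block (replicate block) gave 10, 5 and 10 of the 10 genes in males, females and between sexes and 5354, 2609 and 4644 of all genes, and changed no call of the 10. Same-numbered libraries did not deviate together over all genes (correlations −0.23 to 0.05), so no pairing by number was seen, though a weak one could be missed. Of the marker shares, the male yolk difference ran from −0.0261 to 0.00170 percentage points when each library was left out, turning round without HPLC replicate 4, and the female neuron difference was −0.00371 with yolk genes left out of the total, in place of 0.0110. The female fat body share lost its call without any one of 6 libraries (differences −0.287 to −0.229 percentage points) and the female haemocyte share with yolk genes left out (0.00658, exact permutation p = 0.127). The male values of PGRP-SC2 rest on 5 to 56 reads per library, which limits its precision.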

Other observations

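Male LPHC replicate 3, in which PGRP-SC2 stood apart, was also the highest of its group for several antimicrobial peptide genes, a comparison made after the values were seen. DptA had 179 there, against 2.42 to 10.5 in the other 4 male LPHC libraries. AttC had 60.6 there, against 4.18 to 12.1 in the others. AttA had 406 there, against 105 to 156 in the others. Values of pirk (229) and PGRP-LB (224) in the same library lay within or below those of the other male LPHC libraries.

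The effector gene DptA, chosen after its values were seen, had a much wider range between female libraries than Rel. It ran from 71.6 to 1317 in female LPHC and from 88.1 to 2848 in female HPLC, while Rel ran from 6479.7 to 8188 in female LPHC and from 5562 to 6648 in female HPLC.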
